A study of Homo sapiens with 9 samples.

Results

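The MYC, MAX and MXD network is described here through 10 genes: MYC, MAX, MXD1, MXD3, MXD4, MXI1, MNT, MGA, MLX and MLXIP. They were found as the entries of the deposited count table whose NCBI gene identifier belongs to these symbols, and all 10 were present among the 28395 genes listed and among the 12695 genes tested. RNA was sequenced from 3 human cell lines with 3 libraries each. HK2 is an immortalized line of proximal tubule cells from a healthy kidney, and 786-O came from a primary clear cell renal cell carcinoma (ccRCC). The other is the metastatic derivative of 786-O whose label carries the suffix M1A, called the metastatic line here. Its full name is in the legend of the plot of levels by library. It was obtained from lung metastases that 786-O cells formed after injection in vivo. All cultures were grown in Plasmax, a medium with physiological nutrient levels, for at least 3 weeks and received no drug or other treatment. Each group is a single cell line, so that the genotype, the tissue of origin and the history of a line cannot be told apart. The p-values measure the spread between replicate dishes of these lines, which the paper calls independent cultures, not between patients.

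MYC is a transcription factor that binds DNA only as a heterodimer with MAX, mostly at the E-box sequence CACGTG, and drives genes of ribosome production, nucleotide synthesis and growth. MXD1, MXI1 (also called MXD2), MXD3, MXD4 and MNT compete for the same partner and the same sites and recruit SIN3 and histone deacetylase repressors, whereas MGA carries MAX into a variant Polycomb complex, PRC1.6. MLX is a MAX-like partner for a parallel branch in which it pairs with the glucose-sensing activators MLXIP (MondoA) and MLXIPL (ChREBP), and it can also pair with MXD1, MXD4 and MNT.

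Libraries held between 30212291 and 45362428 counts, and values below are in CPM, that is counts normalized to the library totals after correction by TMM, whose factors lay between 0.967 and 1.03. A count of 3, used as the floor, was worth between 0.0649 and 0.0966 CPM and covers counting error only. Libraries of a line stood together, with correlations of log2 CPM across genes of at least 0.997 within lines and at most 0.968 between lines. The labelled tissue was checked with lists of markers: PAX8 was present in every line, while the proximal tubule transporters LRP2 and SLC22A6 were at or under 3 counts in every library. Of the 8 proximal tubule markers, summed levels ran from 110 to 116 CPM in HK2, from 81.8 to 83.9 in 786-O, and from 87.0 to 96.8 for the metastatic line, nearly all of it GGT1. The 6 kidney epithelial markers summed to 1324 to 1357 CPM in HK2. Their sum was 633 to 684 CPM in 786-O and 738 to 813 for the metastatic line, most of it KRT8, KRT18 and PAX8. CDH1 was at or under 3 counts in the metastatic line and had 1, 7 and 3 counts in the 786-O libraries. EPCAM was also lower in both carcinoma lines, with means of 74.14, 0.5732 and 8.856 CPM in HK2, 786-O and the metastatic line. PAX2 was higher in both, at 3.493, 24.98 and 10.66 CPM in the same order. For clear cell carcinoma, the 4 markers used summed to between 62.7 and 68.4, 374 and 406, and 586 and 650 CPM in the same order. Most of each sum was CD70, at 61.3, 334 and 478 CPM, and EGLN3 rose as well, from 1.72 to 50.05 and 128 CPM. ANGPTL4, at 2.58, 3.12 and 3.25 CPM, was not called in any comparison, and CA9 was at or under 3 counts throughout. Markers of other cell types (8 genes) summed to 98.7 to 112 CPM in HK2, to 292 to 360 in 786-O, and to 50.2 to 55.1 for the metastatic line through CD68 and COL1A1, while PTPRC, PECAM1, VWF, CDH5 and ALB were at or under 3 counts in all libraries. The part of these markers in the results below was not tested.

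Most of the network was lower in both carcinoma lines than in HK2. In 786-O against HK2, 3 members were called higher (MXD3, MLX and MLXIP) and 7 lower (MYC, MAX, MXD1, MXD4, MXI1, MNT and MGA), by edgeR's quasi-likelihood test with Benjamini-Hochberg adjusted p under the threshold of 0.05. In the metastatic line against HK2, MXD3, MLX and MLXIP were again higher and the other 7 lower. These comparisons share the HK2 libraries. Calls were common among all genes, at 84.2% of those tested in 786-O (41.6% higher and 42.6% lower) and 84.9% in the metastatic line (41.6% higher and 43.3% lower), so that a call as such does not set the members apart. A difference of at least 2-fold was called for 3 members in 786-O (MYC, MXD4 and MGA), beside 22.3% of all genes, and for 4 members in the metastatic line (MYC, MXD3, MXD4 and MGA), beside 25.4%. The libraries of the carcinoma line and of HK2 did not overlap for any of the 10 members in either comparison, which was also so for 85.5% and 85.0% of all genes. The median log2 fold change of the members was -0.53 in 786-O and -0.68 in the metastatic line, against -0.01 and -0.02 over all genes tested. As these are bulk cultures, fewer cells with an mRNA and less of it per cell cannot be told apart.

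**Figure D1:**
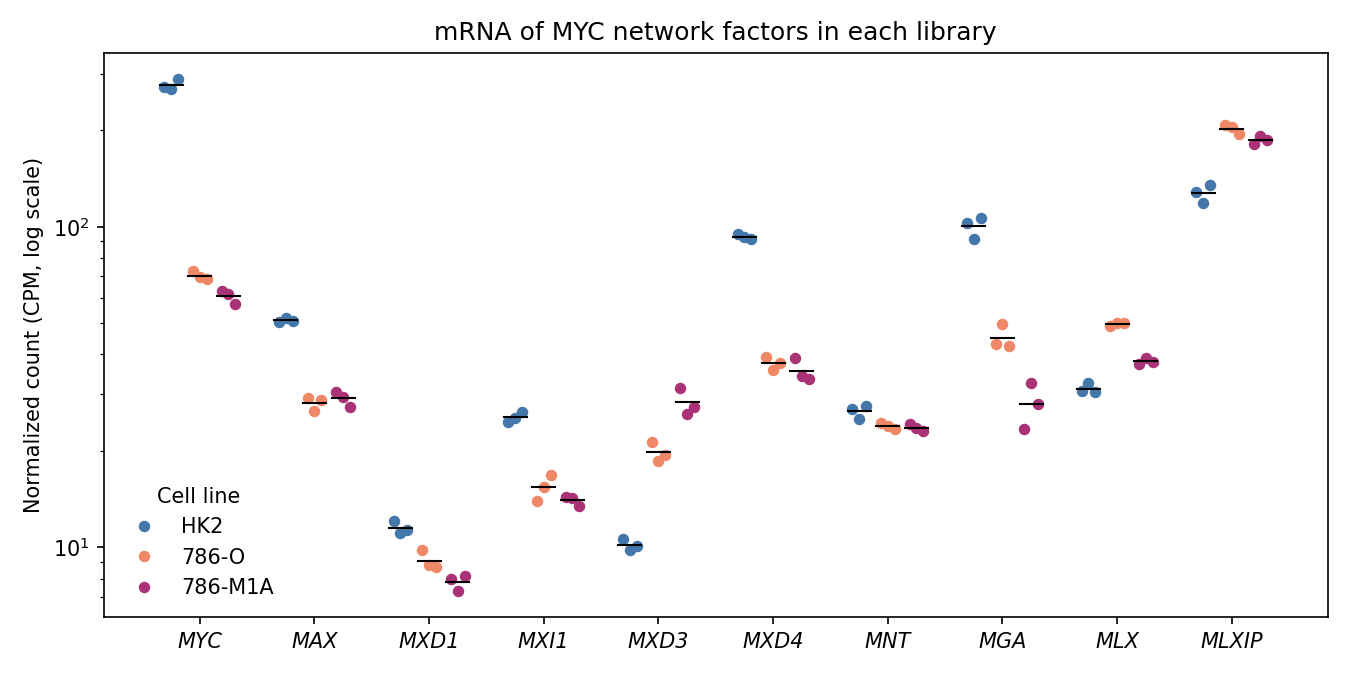
Level of the 10 network genes in each of the 9 libraries, in CPM on a log axis, with a point per library coloured by line and a black line at the mean of the 3 libraries. MYC lay at 277 CPM in HK2 and at 70.4 and 60.7 CPM in the carcinoma lines, whereas MXD3, MLX and MLXIP were higher in both carcinoma lines than in HK2.

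MYC (NCBI gene 4609, chromosome 8, 127735434 to 127742951, plus strand, GRCh38), the activating arm of the network, showed the largest fall of the members. Its level was 272, 269 and 290 CPM in the HK2 libraries, 72.9, 69.5 and 68.9 CPM in 786-O and 63.0, 61.7 and 57.4 CPM for the metastatic line. Every carcinoma library lay far below every HK2 library, and the metastatic libraries all lay below those of 786-O. The means were 277 ± 11.3, 70.4 ± 2.19 and 60.7 ± 2.97 CPM (SD, n = 3). MYC was 3.93-fold lower in 786-O than in HK2 (log2 fold change -1.97, SE 0.044, adjusted p = 1.99e-20) and 4.56-fold lower in the metastatic line (log2 fold change -2.19, SE 0.045, adjusted p = 3.81e-21). Between the carcinoma lines the fall was small but past the threshold, 1.16-fold in the metastatic line (log2 fold change -0.21, adjusted p = 3.75e-04). The only listed neighbour that overlaps MYC exons, CASC11 on the opposite strand, had at most 5 counts in any library.

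The paralogs of MYC were at low levels in every line. MYCN, the neural paralog, had 0 counts in 8 libraries and 1 count in the other, a 786-O library. MYCL, the paralog first found in lung cancer, was low throughout, at 3.61 ± 0.178 CPM in HK2, 2.22 ± 0.0989 in 786-O and 0.872 ± 0.0629 for the metastatic line (SD, n = 3). MYCL fell along the same order of lines as MYC, with log2 fold changes of -0.69 for 786-O (adjusted p = 5.63e-06) and -2.04 for the metastatic line (adjusted p = 6.12e-12) against HK2, and -1.35 for the metastatic line against 786-O (adjusted p = 1.14e-07).

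MAX (gene 4149, chromosome 14, 65006101 to 65102695, minus strand), the shared partner, was lower in the carcinoma lines as well, but by less than MYC. It measured 50.5, 52.0 and 51.0 CPM in HK2, 29.2, 26.7 and 28.8 in 786-O and 30.5, 29.4 and 27.5 for the metastatic line. The carcinoma libraries overlapped each other and lay below all HK2 libraries. The log2 fold changes against HK2 were -0.86 (SE 0.049, adjusted p = 4.71e-13) and -0.81 (SE 0.050, adjusted p = 1.20e-12), and that between the carcinoma lines was 0.04 (SE 0.052, adjusted p = 0.481). On the opposite strand FNTB overlaps MAX exons. It was far lower, at 2.23 ± 0.0979, 1.72 ± 0.417 and 1.54 ± 0.433 CPM in HK2, 786-O and the metastatic line.

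Among the MXD repressors, MXD4 fell most and MXD3 rose. MXD4 (gene 10608, chromosome 4, 2247432 to 2262109, minus strand), a family member linked to cells leaving the cycle, was at 94.8, 92.6 and 91.6 CPM in HK2, 39.3, 35.7 and 37.5 in 786-O and 39.1, 34.3 and 33.5 for the metastatic line. All HK2 libraries lay above 91 CPM and all carcinoma libraries below 40 CPM, with the carcinoma lines overlapping. MXD4 was 2.48-fold lower in 786-O (log2 fold change -1.31, SE 0.052, adjusted p = 5.80e-16) and 2.61-fold lower in the metastatic line (-1.39, SE 0.053, adjusted p = 2.25e-16). Between the metastatic line and 786-O the log2 fold change was -0.08 (adjusted p = 0.243). That last comparison passed the threshold without replicate 1 of the metastatic line (-0.15, adjusted p = 0.0163).

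MXD3 (gene 83463, chromosome 5, 177305499 to 177312752, minus strand) is the family member found in proliferating cells, in S phase, rather than in differentiating ones. Its libraries measured 10.7, 9.79 and 10.1 CPM in HK2, 21.4, 18.6 and 19.5 in 786-O and 31.5, 26.1 and 27.5 for the metastatic line. The 3 lines did not overlap and stood in the order HK2, 786-O, metastatic line, opposite to that of MYC. The log2 fold change was 0.96 (SE 0.076, adjusted p = 1.73e-10) in 786-O and 1.48 (SE 0.074, adjusted p = 6.71e-14) in the metastatic line against HK2, and MXD3 was the only member called higher in the metastatic line than in 786-O (0.51, SE 0.068, adjusted p = 1.62e-06). MXD3 shares exonic positions with RAB24 on its own strand and with PRELID1 on the other. PRELID1 also rose against HK2 (log2 fold change 0.91 in 786-O and 0.99 for the metastatic line), with 0.09 between the carcinoma lines (adjusted p = 0.135), and RAB24 had log2 fold changes of 0.18, 0.21 and 0.03 in the same order. PRELID1 was at 35.1, 65.9 and 70.0 CPM in HK2, 786-O and the metastatic line, above MXD3 in each. RAB24 was at 14.2, 16.0 and 16.4 CPM in the same order, above MXD3 in HK2 only. Whether reads of PRELID1 or RAB24 entered the MXD3 count was not tested. The levels and shares of MXD3 per length given below carry the same limit.

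MXI1 (gene 4601, chromosome 10, 110207605 to 110287365, plus strand), which is known as a target of hypoxia-inducible factors, was lower in the carcinoma lines. The libraries gave 24.7, 25.3 and 26.4 CPM in HK2, 14.01, 15.4 and 16.8 in 786-O and 14.4, 14.3 and 13.5 for the metastatic line. HK2 stood clear above the others, and the libraries of the carcinoma lines overlapped. The log2 fold changes against HK2 were -0.73 (SE 0.063, adjusted p = 4.82e-10) and -0.86 (SE 0.064, adjusted p = 3.74e-11). Between the carcinoma lines it was -0.13 (adjusted p = 0.0999), and -0.19 (adjusted p = 0.0240) without 786-O replicate 1.

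MXD1 (gene 4084, chromosome 2, 69915109 to 69942945, plus strand) is the founding member, induced in differentiation. Its libraries ran from 11.1 to 12.1 CPM in HK2, from 8.67 to 9.84 in 786-O, and down to 7.30 to 8.17 in the metastatic line, with no overlap between the lines. The log2 fold change against HK2 was -0.33 for 786-O (adjusted p = 2.86e-04) and -0.55 for the metastatic line (adjusted p = 7.76e-07). The lower level in the metastatic line than in 786-O (log2 fold change -0.22, adjusted p = 0.0206) missed the threshold without 786-O replicate 1 (adjusted p = 0.142) or without replicate 2 of the metastatic line (adjusted p = 0.104). The same-strand neighbour SNRNP27, which overlaps MXD1 exons, differed by -0.18 in both carcinoma lines against HK2 and by 0.00 between them.

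MNT (gene 4335, chromosome 17, 2384073 to 2401060, minus strand), the repressor present in most cells, had the smallest log2 fold changes of the members against HK2. Its level ran from 25.2 to 27.6 CPM in HK2, from 23.4 to 24.4 in 786-O, and from 23.1 to 24.3 for the metastatic line. HK2 libraries were all slightly higher, and those of the carcinoma lines overlapped. The log2 fold changes against HK2 were -0.16 (adjusted p = 0.00808) and -0.17 (adjusted p = 0.00436), and the first missed the threshold without HK2 replicate 3 (-0.13, adjusted p = 0.0537). Between the carcinoma lines the value was -0.02 (SE 0.052, adjusted p = 0.821).

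MGA (gene 23269, chromosome 15, 41621224 to 41769940, plus strand), the scaffold of PRC1.6 and by far the longest member, fell in steps over the lines. It measured 103, 91.4 and 107 CPM in HK2, 43.2, 49.7 and 42.6 in 786-O and 23.5, 32.6 and 28.0 for the metastatic line. No library of a line reached those of the next. MGA was 2.23-fold lower in 786-O (log2 fold change -1.15, SE 0.11, adjusted p = 1.14e-05) and 3.58-fold lower in the metastatic line (-1.84, SE 0.12, adjusted p = 5.21e-07) than in HK2. It was also the member that differed most between the metastatic line and 786-O (-0.68, SE 0.12, adjusted p = 0.00138).

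The spread of MGA within lines moved with the share of counts on long transcripts. Its canonical transcript in GENCODE measures 12193 nt, and the 1618 tested genes with at least 7000 nt held 15.5, 14.5 and 15.7% of counts in the HK2 libraries, 14.6, 15.2 and 14.4% in 786-O and 13.4, 14.7 and 14.2% in the metastatic line. In HK2 the library with the lowest share had the lowest MGA, in 786-O that with the highest share had the highest MGA, and in the metastatic line the order of the 3 libraries was the same for both measures. This share was then used as a covariate, a setting chosen after these values were seen. It was centred within each line, so it could change the spread within lines but hardly the log2 fold changes between them. By edgeR, those of MGA were then -1.15, -1.84 and -0.69. Their adjusted p were 2.00e-19, 2.10e-23 and 8.98e-13 for 786-O against HK2, the metastatic line against HK2 and the metastatic line against 786-O. MGA is itself among the 1618 genes of this share, which was chosen on the same libraries. These lower adjusted p are therefore no further evidence for the differences. Whether the difference in share between the lines bears on MGA was not tested.

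**Figure D2:**
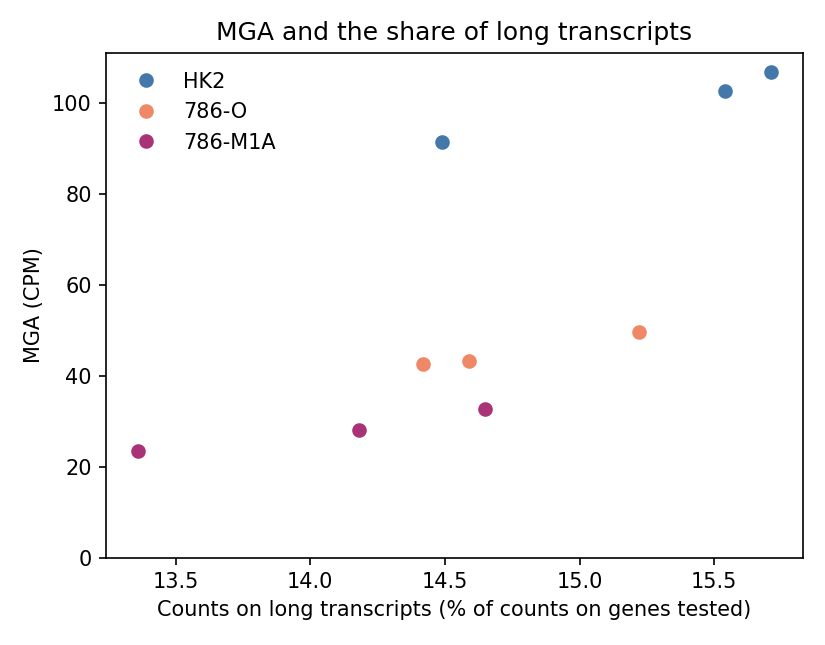
MGA level in CPM against the percent of each library's counts on genes with transcripts of at least 7000 nt, with a point per library coloured by line. Points of a line run upward from left to right, while the lines stay apart in height, with MGA at 91.4 CPM or more in HK2 and at 32.6 CPM or less in the metastatic line.

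MLX and MLXIP were higher than in HK2 in both carcinoma lines, where MYC was lower, and all 3 were lower in the metastatic line than in 786-O. MLX (gene 6945, chromosome 17, 42567100 to 42573203, plus strand) gave 30.9, 32.6 and 30.4 CPM in HK2, 48.9, 50.1 and 49.96 in 786-O and 37.2, 38.9 and 37.9 for the metastatic line. The lines did not overlap, with 786-O highest and the metastatic line between. The log2 fold changes were 0.67 (SE 0.045, adjusted p = 6.94e-12) in 786-O against HK2, 0.28 (SE 0.046, adjusted p = 7.86e-06) in the metastatic line against HK2 and -0.38 (SE 0.044, adjusted p = 1.86e-07) between the metastatic line and 786-O. PSMC3IP, which overlaps MLX exons on the opposite strand, differed by 0.41, 0.32 and -0.09 in the same order.

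MLXIP (gene 22877, chromosome 12, 122078756 to 122147344, plus strand) encodes MondoA, the glucose-sensing partner of MLX. Its libraries measured 129, 119 and 135 CPM in HK2, 208, 204 and 194 in 786-O and 182, 192 and 187 for the metastatic line. Both carcinoma lines lay above HK2, by 0.67 on the log2 scale in 786-O (SE 0.044, adjusted p = 5.85e-12) and 0.55 in the metastatic line (SE 0.044, adjusted p = 1.38e-10). The metastatic libraries were all below those of 786-O by a small margin (log2 fold change -0.11, adjusted p = 0.0336). That call was lost with DESeq2 (adjusted p = 0.0553) and without 786-O replicate 1 (0.160), 786-O replicate 2 (0.0967), replicate 1 of the metastatic line (0.0917) or replicate 3 of the metastatic line (0.0682). MLXIPL, the ChREBP gene, had 7 to 11 counts in the HK2 libraries and 0 in all carcinoma libraries, and was too low to be tested.

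**Figure D3:**
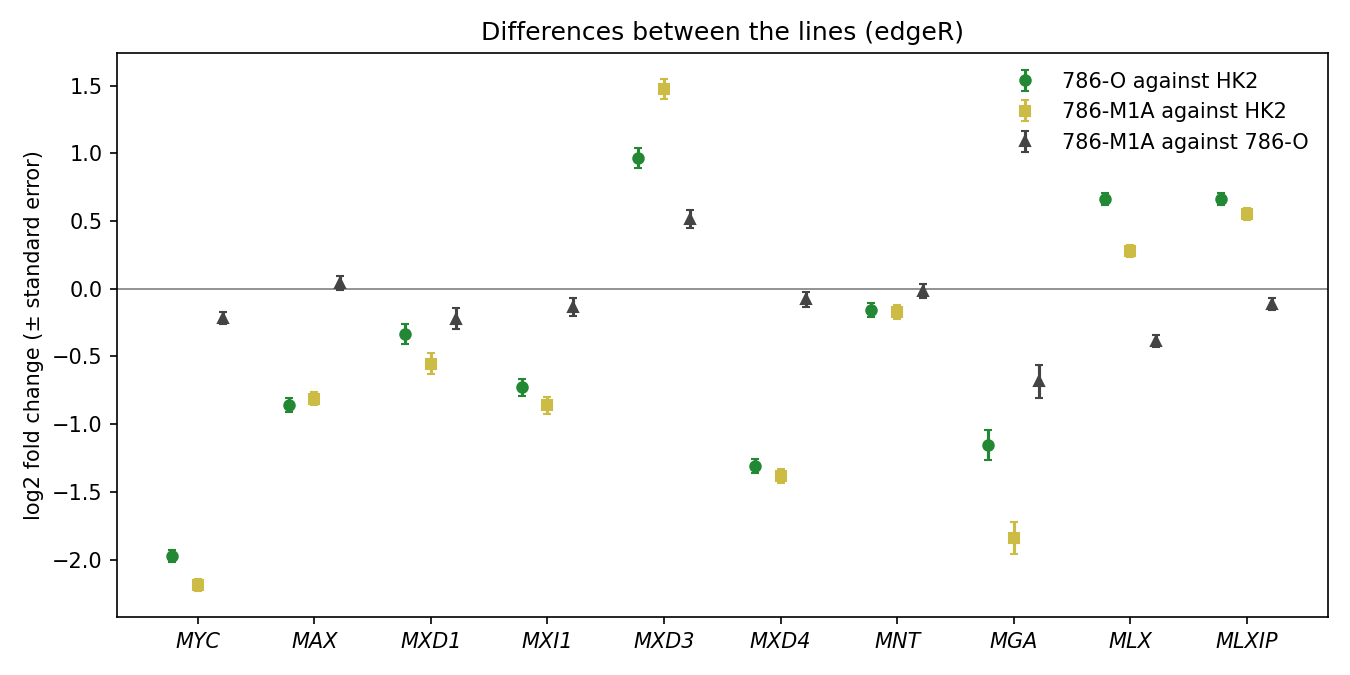
The log2 fold change of each network gene in 786-O against HK2 (circles), the metastatic line against HK2 (squares) and the metastatic line against 786-O (triangles), with bars of ± 1 standard error from edgeR. MYC reached -1.97 and -2.19 against HK2, while the values between the carcinoma lines lay between -0.68 for MGA and 0.51 for MXD3.

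Between the carcinoma lines, 6 members were called, with MXD3 higher and MYC, MXD1, MGA, MLX and MLXIP lower in the metastatic line, beside 56.0% of all genes tested (27.9% higher and 28.0% lower). No member differed by 2-fold, as 6.59% of all genes did. The libraries of the metastatic line and 786-O did not overlap for 6 members, beside 61.6% of all genes. The median log2 fold change of the members was -0.12, and that of all genes was 0, a value shared by 71 genes without counts in either line. The 4 members not called were MAX, MXD4, MXI1 and MNT. By the exact two-sided permutation test on log2 CPM, which cannot give less than 0.1 with 3 libraries against 3, these had p of 0.5, 0.4, 0.3 and 0.7, and every other comparison of a member reached 0.1.

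Levels of different members were compared per length, as RPKM from the canonical GENCODE transcript, and the length of all annotated exons was used as another choice. In HK2, MYC led at 74.4 ± 3.03 RPKM, ahead of MAX at 25.5 ± 0.397 and MXD4 at 24.0 ± 0.417 (SD, n = 3). MLXIP (15.2 ± 0.964), MLX (13.3 ± 0.482), MXD3 (9.56 ± 0.411), MGA (8.23 ± 0.657), MXI1 (7.34 ± 0.255) and MNT (5.41 ± 0.259) followed, with MLXIP and MLX apart by more than their spread and the libraries of MGA and MXI1 overlapping. With the exon length MXD4 and MLXIP (9.19 ± 0.583) came before MAX (8.18 ± 0.128), and MXD3 moved from rank 6 to rank 9 at 2.15 ± 0.0924 RPKM. MXD1 was last in every line with either length, at 2.07 ± 0.0929, 1.64 ± 0.115 and 1.41 ± 0.0829 RPKM.

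In 786-O the order began with MLXIP at 24.1 ± 0.866 RPKM, MLX at 21.0 ± 0.277, and then MYC at 18.9 ± 0.589 and MXD3 at 18.6 ± 1.31, which lay within their spread. In the metastatic line, MXD3 stood first at 26.6 ± 2.65 RPKM, followed by MLXIP at 22.3 ± 0.634, MYC at 16.3 ± 0.799 and MLX at 16.1 ± 0.367, of which the last pair were within their spread. The place of MXD3 rested on its canonical transcript of 1067 nt: with the 4743 nt of all its exons it was at 5.98 ± 0.596 RPKM and ranked 4 in the metastatic line, and MLXIP ranked 1 in both carcinoma lines.

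Per length, the balance between MYC and the repressors that share MAX differed between the lines. MYC mRNA exceeded MAX mRNA 2.92 ± 0.141 times in HK2, 1.35 ± 0.0568 times in 786-O and 1.13 ± 0.00870 times for the metastatic line, and 5.54, 2.56 and 2.13 times with the exon length. Summed over MXD1, MXD3, MXD4, MXI1, MNT and MGA, the repressors were at 56.6 ± 1.43, 42.9 ± 1.46 and 48.3 ± 3.26 RPKM. With the exon length the sum was 29.9 ± 0.736, 18.7 ± 0.394 and 18.9 ± 0.958 RPKM, so that the higher sum in the metastatic line than in 786-O was seen with the canonical length but lay within the spread with the other. MYC made up 56.8 ± 0.875% of MYC plus this sum in HK2, 30.6 ± 0.337% in 786-O and 25.3 ± 1.02% for the metastatic line (SD, n = 3), and 60.3, 38.2 and 34.5% with the exon length. MYC and the repressors together stood at 5.15 ± 0.213 times MAX in HK2 and at 4.41 ± 0.137 and 4.46 ± 0.151 times in 786-O and the metastatic line, whereas the exon length gave 9.20, 6.70 and 6.19 times, with 786-O above the metastatic line. These ratios are descriptions of mRNA with no test. The paper measured proteins of these lines by mass spectrometry, and those data were not used here.

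**Figure D4:**
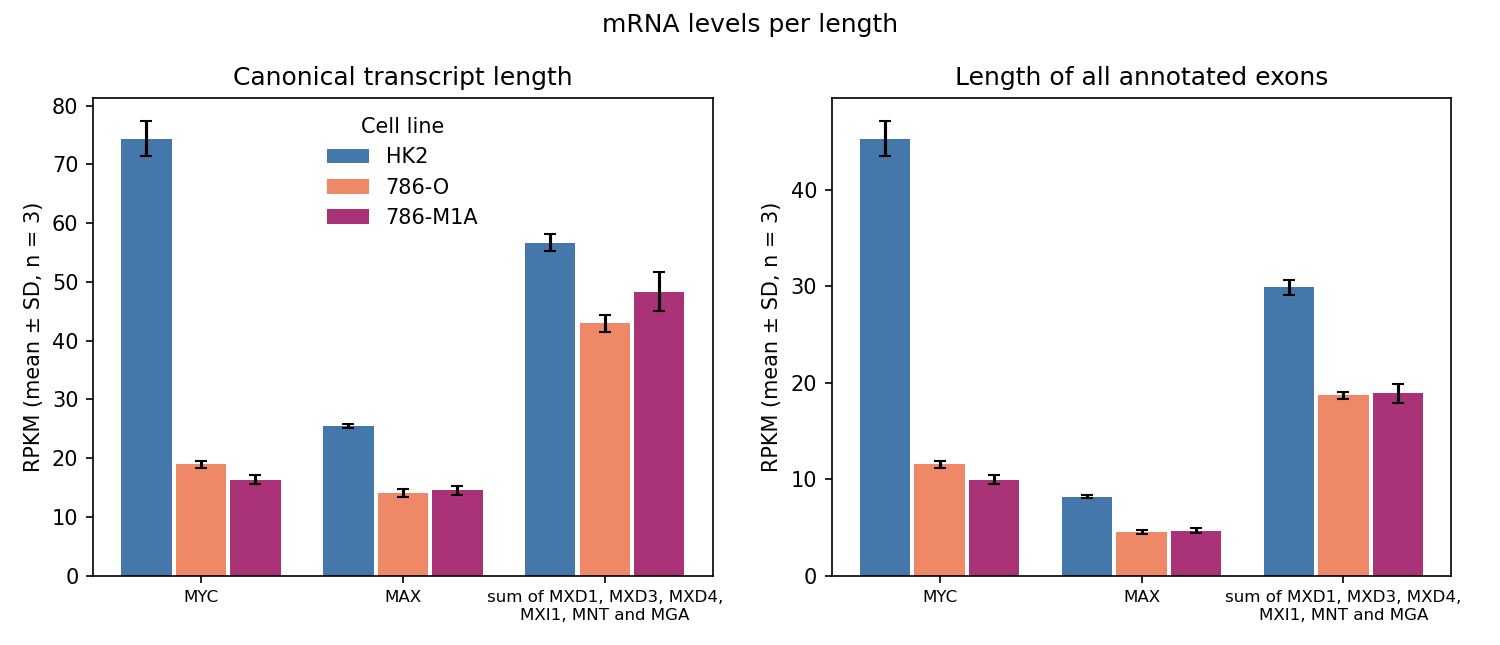
Levels of MYC, of MAX and of the summed repressors in RPKM (bars, mean; error bars, SD of 3 libraries), per canonical transcript length on the left and per length of all annotated exons on the right. MYC exceeded the summed repressors in HK2 alone of the 3 lines with both lengths, at 74.4 against 56.6 RPKM on the left.

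The make-up of the repressors changed as well. MXD4 fell from 42.4 ± 1.06% of the sum in HK2 to 22.6 ± 0.367% in 786-O and 19.0 ± 0.460% for the metastatic line, while MXD3 went from 16.9 ± 0.391% to 43.3 ± 1.57% and 54.9 ± 1.90%. With the exon length MXD3 took smaller shares of 7.20, 22.4 and 31.6% in HK2, 786-O and the metastatic line, beside 45.3, 29.2 and 27.4% for MXD4, so that MXD4 then remained the larger of both in 786-O. In the MLX branch, MLXIP was at 1.15 ± 0.112 times MLX in HK2, 1.15 ± 0.0526 times in 786-O and 1.38 ± 0.00938 times for the metastatic line.

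Promoter windows from RefSeq (GRCh38.p14), from 250 bases before to 50 after an annotated start, were found for 9 members and held the E-box CACGTG in 3 of them, MXD4, MNT and MLX. The E-box reads the same on both strands and occurred in 7.26% of 35116 windows, in 12.9% of the 10191 tested genes with a window and in 25 of 47 MYC target genes with a window (53.2%). A stretch of 100 bases that holds the E-box is shown for these members because they encode network factors and carry the site that the network binds. For MXI1 a stretch is shown with the hypoxia response core, ACGTG or GCGTG, which was searched on both strands, overlaps the E-box and occurred in 48.4% of all windows, in 71.0% of tested genes with a window and in 8 of the 9 members, so that it is not particular to MXI1. Capitals mark CACGTG, which begins 238 bases before the start of MXD4, 193 before that of MNT and 50 before that of MLX. In MXI1 they mark GCGTG at 127 and the reverse complement of ACGTG at 113 bases before a start. The stretches lie at chr4:2262260-2262359 (minus strand) for MXD4, chr17:2401199-2401298 (minus) for MNT, chr17:42567000-42567099 (plus) for MLX and chr10:110210059-110210158 (plus) for MXI1. A match is a run of letters and not a measured site.
MXD4: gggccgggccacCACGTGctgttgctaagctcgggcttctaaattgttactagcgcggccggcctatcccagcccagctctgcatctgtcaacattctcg
MNT: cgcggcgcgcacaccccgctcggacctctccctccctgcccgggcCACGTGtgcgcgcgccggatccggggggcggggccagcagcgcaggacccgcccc
MLX: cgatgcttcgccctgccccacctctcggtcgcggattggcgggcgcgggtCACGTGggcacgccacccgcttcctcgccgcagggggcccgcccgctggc
MXI1: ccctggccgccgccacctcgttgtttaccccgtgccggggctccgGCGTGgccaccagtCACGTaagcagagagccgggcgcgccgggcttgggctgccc
The 3 members with an E-box in their window did not move together: MXD4 fell by 1.31 on the log2 scale in 786-O, MNT fell by 0.16 and MLX was higher by 0.67. MXI1 has 3 windows, and its counts pool the transcripts from all its starts. The stretch shown is from window 2. Window 1, at the start of the gene as given above, holds no hypoxia response core, and window 3 holds 2.

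Genes known as targets of MYC differed between the lines in both directions. Of a list of 57 MYC target genes, mostly of ribosome production and the cell cycle, 56 were tested, and 29 were higher, 22 lower and 5 not called in 786-O against HK2. In the metastatic line against HK2, 27 were higher, 21 lower and 8 not called. The median log2 fold change was 0.10 and 0.07, beside -0.01 and -0.02 over all genes, and 4 and 6 target genes were called with at least 2-fold, beside 22.3% and 25.4% of all genes. Of all genes, 41.6% were higher in each line and 42.6% and 43.3% lower. With upper-quartile scaling the counts of higher and lower genes were 25 and 23 in 786-O and 23 and 24 for the metastatic line, so that which direction was the more frequent in the metastatic line depends on the scaling. The median of the list thus lay near that of all genes tested in each line, beside MYC's own log2 fold changes of -1.97 and -2.19.

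Among the MYC target genes that rose most were SLC19A1, the reduced folate carrier (log2 fold change 1.19 in 786-O, 1.26 in the metastatic line), and PLK1, a mitotic kinase (1.05 and 1.27). UNG, a uracil DNA glycosylase, went from 159 ± 2.86 CPM in HK2 to 49.97 ± 1.53 in 786-O and 50.5 ± 1.39 for the metastatic line, with log2 fold changes of -1.67 and -1.65. DUSP2, a phosphatase of MAP kinases, lay at 3.99 ± 0.498 CPM in HK2 and had no counts in 786-O, at least 50.04-fold lower against the highest floor of a 786-O library, and 1 count in all in the metastatic line. Adjusted p was at most 3.98e-14 for each of these genes against HK2.

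Between the metastatic line and 786-O, 21 MYC target genes were higher, 10 lower and 25 not called. Their median log2 fold change was 0.04 and none was called with 2-fold. Among all genes tested, 27.9% were higher and 28.0% lower there, and 6.59% were called with at least 2-fold. The difference from these shares was not tested. The hexokinase gene HK2, whose symbol is also the name of the kidney line, was higher in the metastatic line by 0.67 (adjusted p = 1.48e-06), at 31.7 CPM against 20.0 in 786-O. MCM5, part of the replicative helicase, was higher by 0.41 (adjusted p = 4.79e-08). TMEM97, a sterol-regulated membrane protein, fell by 0.49 on the log2 scale (adjusted p = 8.33e-10) and PHB1, prohibitin, fell by 0.41 (adjusted p = 2.84e-09).

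The 10 classic direct targets of MYC were split evenly, with 4 higher, 4 lower and 2 not called in each carcinoma line against HK2. Calls were made for 84.2% and 84.9% of all genes tested in these comparisons. LDHA, lactate dehydrogenase A, was higher by 1.08 in 786-O and 1.29 for the metastatic line, and by 0.20 between the carcinoma lines (adjusted p = 1.91e-05). TERT, the catalytic subunit of telomerase, had 3 or 4 counts in each HK2 library, 3.50 ± 0.307 CPM in 786-O, against 1.99 ± 0.103 CPM for the metastatic line, and fell by 0.82 on the log2 scale from 786-O to the metastatic line (adjusted p = 5.43e-06). CCND2, cyclin D2, was at 17.0 CPM in HK2 with no counts in either carcinoma line, at least 214-fold lower in 786-O and at least 205-fold lower in the metastatic line against the highest floor. TFRC, the transferrin receptor, was lower in both lines (log2 fold change -1.09 and -1.25). ODC1, the first enzyme of polyamine synthesis, was lower in the metastatic line than in 786-O (-0.20, adjusted p = 0.00104). It was 1 of 3 genes lower there beside 1 higher and 6 not called, where 56.0% of all genes tested were called.

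Genes that MYC is known to repress did not share a direction. Of 7 tested, 2 were higher, 4 lower and 1 not called in 786-O (median log2 fold change -0.32). In the metastatic line 4 were higher and 3 lower (median 0.62). Among all genes tested, 41.6% were higher in each line, and 42.6% and 43.3% lower. NDRG1, a hypoxia- and stress-induced gene, rose by 3.05 in 786-O (adjusted p = 5.84e-06) and 3.53 in the metastatic line (adjusted p = 2.48e-06). CDKN1A, the cell cycle inhibitor p21, rose by 1.47 in 786-O (adjusted p = 4.10e-18). CDKN2B, another inhibitor of cell cycle kinases, was at 22.2 CPM in HK2 and without counts in 786-O and the metastatic line, at least 278- and 267-fold lower. NDRG2, a relative of NDRG1, was lower in all 3 comparisons, with log2 fold changes of -2.63 for 786-O and -5.38 for the metastatic line against HK2 and -2.74 between them.

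In the metastatic line against 786-O, 3 of these genes were higher, 2 lower and 2 not called, beside 56.0% of all genes called. The median log2 fold change was 0.28. PDGFRB, a growth factor receptor, was at 5.00 CPM in HK2 and 2.60 CPM in 786-O, but at 282 CPM in the metastatic line, which is 6.75 higher on the log2 scale than in 786-O (adjusted p = 1.11e-24) and 5.84 higher than in HK2. GADD45A, a stress-response gene, was higher by 0.63 (adjusted p = 1.96e-08), and THBS1, thrombospondin, fell by 1.08 on the log2 scale (adjusted p = 8.83e-09).

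The genes that MondoA and ChREBP are known to control moved in both directions while MLX and MLXIP were higher in the carcinoma lines. TXNIP, an inhibitor of glucose uptake and the best known of them, was at 86.0 ± 7.35 CPM in HK2, 55.9 ± 7.64 in 786-O and 64.8 ± 6.07 for the metastatic line (SD, n = 3). It was lower than in HK2 by edgeR (log2 fold change -0.62, adjusted p = 9.91e-04, and -0.41, adjusted p = 0.00979) and differed by 0.22 between the carcinoma lines (adjusted p = 0.155). ARRDC4, its paralog, rose from 4.16 ± 0.235 CPM in HK2 to 10.3 ± 0.709 and 9.44 ± 0.870 CPM (log2 fold change 1.30 and 1.18, adjusted p = 1.40e-11 and 1.05e-10) and differed by -0.12 between the carcinoma lines (adjusted p = 0.203). KLF10, a transcriptional repressor, was higher by 0.33, 0.47 and 0.14 in the 3 comparisons (adjusted p at most 0.0129). PKLR and RGS16 had at most 3 counts in any library and were not tested.

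**Figure D5:**
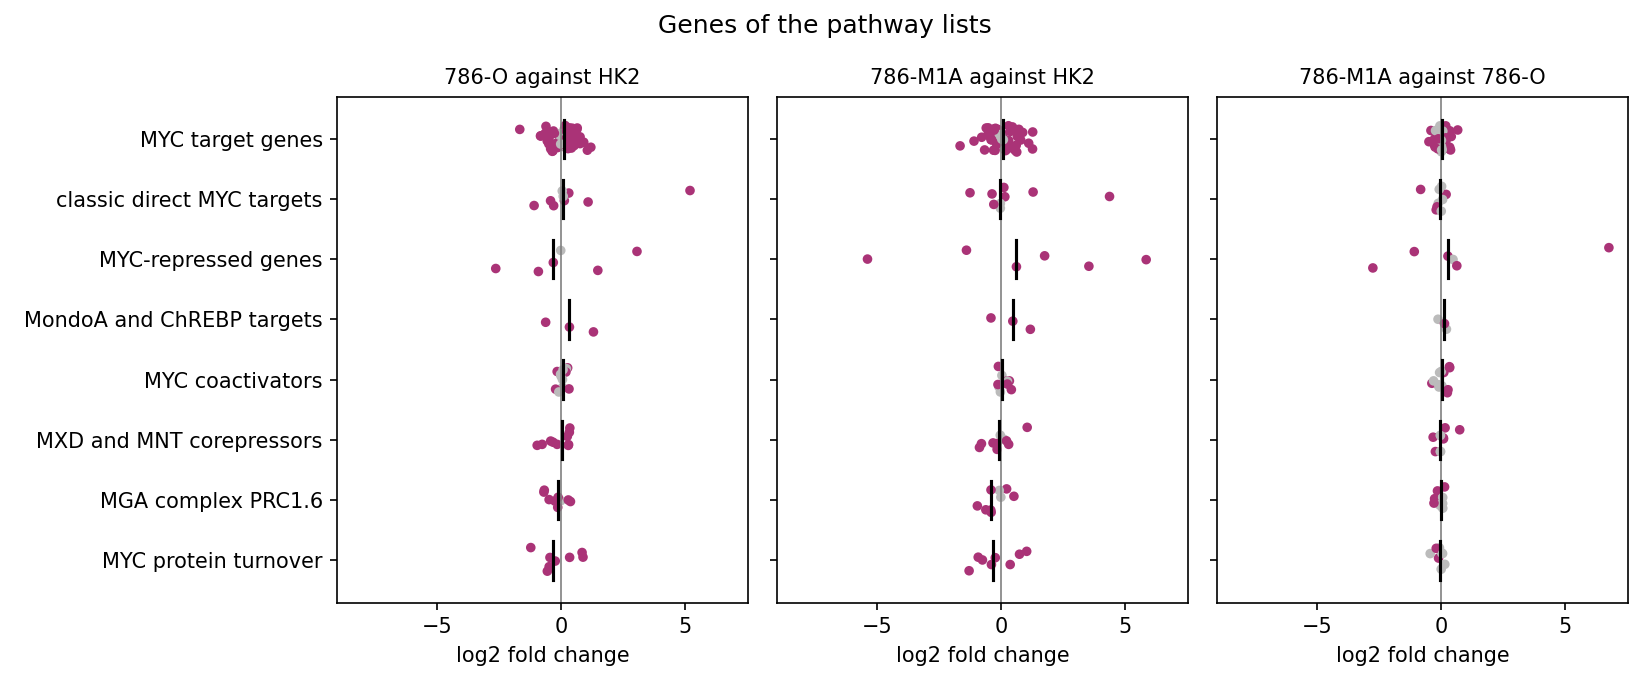
The log2 fold change of each tested gene of 8 pathway lists in the 3 comparisons, with a point per gene, purple where called by edgeR and grey where not, and a black line at the median of the list. DUSP2, CCND2 and CDKN2B, without counts in at least 1 line, are left out as points, which leaves 112 points, and are kept in the medians, and the medians of the MYC target genes lie at 0.10, 0.07 and 0.04.

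No cofactor of MYC differed by 2-fold, beside 22.3%, 25.4% and 6.59% of all genes called with 2-fold in the 3 comparisons. Of 12 coactivators, 3 were higher, 2 lower and 7 not called in 786-O. The counts were 4, 2 and 6 in the metastatic line, and 5, 1 and 6 between the carcinoma lines. Among all genes tested, 84.2%, 84.9% and 56.0% were called in these comparisons. WDR5, which helps to recruit MYC to chromatin, had a higher level in the metastatic line than in HK2 (0.41, adjusted p = 4.96e-10) and than in 786-O (0.34, adjusted p = 5.50e-08). KAT2A, the acetyltransferase GCN5, was higher in 786-O than in HK2 (0.26), lower in the metastatic line than in HK2 (-0.11) and lower in the metastatic line than in 786-O (-0.37). ZBTB17, the MIZ1 gene through which MYC represses, rose from 786-O to the metastatic line (0.35, adjusted p = 1.84e-05). CDK9, the elongation kinase, was higher in the metastatic line than in HK2 (0.33, adjusted p = 9.64e-07). In 786-O against HK2 it was not called (0.05, adjusted p = 0.296). The remaining named differences were smaller, EP300 at 0.31, ACTL6A at -0.22 and RUVBL1 at -0.16 in 786-O against HK2, with adjusted p of at most 0.0429.

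Of the 10 corepressors that MXD proteins and MNT recruit, 5 were higher and 5 lower in 786-O. In the metastatic line 3 were higher, 5 lower and 2 not called, and the counts were 4, 2 and 4 between the carcinoma lines. The shares called among all genes were 84.2%, 84.9% and 56.0%. The deacetylase HDAC2 was lower than in HK2 (log2 fold change -0.97 and -0.87), as was the histone-binding RBBP7 (-0.77 and -0.79). SIN3B, a scaffold of the complex, was higher by 0.33 and 0.30, and NCOR1 was higher by 0.35 in 786-O and lower in the metastatic line than in 786-O (-0.23, adjusted p = 0.00215). SAP30, a subunit of the SIN3 complex, was higher in the metastatic line by 1.05 against HK2 (adjusted p = 5.99e-13) and by 0.75 against 786-O (adjusted p = 6.85e-10), where SUDS3 was higher by 0.16 and SIN3A lower (-0.32).

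The partners of MGA in PRC1.6 were higher for 2 of 9, lower for 6 and not called for 1 in 786-O (median log2 fold change -0.14), and 2, 5 and 2 in the same order in the metastatic line (median -0.40). Of all genes tested, 42.6% and 43.3% were lower, and the difference from these shares was not tested. E2F6, a DNA-binding subunit, was lower at -0.70 and -0.96, and at -0.26 between the carcinoma lines (adjusted p = 0.00545). RING1, an E3 ligase for histone H2A, was lower at -0.68 and -0.61. L3MBTL2 was higher by 0.37, 0.52 and 0.14 in the 3 comparisons, and TFDP1 was higher by 0.29 and 0.22 against HK2. Between the carcinoma lines 1 gene was higher, 3 lower and 5 not called, beside 56.0% of all genes called. The median there was 0.00, and CBX1, a heterochromatin protein, fell by 0.29 on the log2 scale (adjusted p = 4.68e-07).

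Of 8 genes of MYC protein turnover, 3 were higher and 5 lower in each carcinoma line against HK2, with medians of -0.34 and -0.31, where 84.2% and 84.9% of all genes were called. FBXW7, the ubiquitin ligase subunit that marks phosphorylated MYC for degradation, fell from 26.6 ± 1.55 CPM in HK2 (log2 fold change -1.22 and -1.29, adjusted p = 8.12e-14 and 4.03e-14), and GSK3B, a kinase that prepares this mark, fell by 0.56 in 786-O and was lower in the metastatic line than in 786-O (-0.19, adjusted p = 2.11e-04). HUWE1, another ligase with a long transcript, fell by 0.92 in the metastatic line against HK2 (adjusted p = 0.00143). SKP2, a ligase subunit that also acts as a coactivator, was higher by 0.84 and 0.74 and slightly lower in the metastatic line than in 786-O (-0.10, adjusted p = 0.0323). Between the carcinoma lines 2 of these genes were lower, none higher and 6 not called, with a median of -0.03. Calls covered 56.0% of all genes tested there.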

How the data were processed

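The authors prepared TruSeq Stranded mRNA libraries from 3 cultures of each line, sequenced them on a NextSeq and aligned reads to hg38 with Rsubread; featureCounts and GRCh38 are named in the submitters' processing notes. They deposited whole-number counts per gene without normalization. Aligner version, annotation version and the use of strand in counting are not given in the sources used here, so reads of overlapping genes may not be separated.

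Symbols matched 27745 of 28395 identifiers by RefSeq (GRCh38.p14), and lengths came from GENCODE 44. Genes averaging 50 counts or more, the study's filter, were tested in 1 fit of 9 libraries with the robust quasi-likelihood test of edgeR 4.0.16 (R 4.3.3) after TMM, with Benjamini-Hochberg adjustment over 12695 genes. RPKM divided CPM by length. Exact permutation tests used log2 CPM without a prior count, and correlations and nearest patterns used log2 CPM with a prior count of 2. The fit was tested on simulated data with 200 of 12695 genes changed in 786-O, where edgeR called 197 of these and 8 unchanged genes. Every simulated gene had the same relative spread and few genes changed. The simulation thus cannot show how the fit behaves when most genes differ, as they did here. No pair of libraries agreed within sampling noise.

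The members and lists were chosen with earlier results of these data known. The list of MYC target genes follows a published hallmark set and was written from memory, as were the others. Named genes were the members, MYCN, MYCL, MLXIPL, the MondoA and ChREBP targets, the 2 called genes with the largest change in each direction per list and comparison, and the 2 tested genes nearest to MYC and to MAX in pattern; marker lists are given as sums, and 2 genes that this rule named are not reported here. NDUFA4L2 was not used here. Alternatives were DESeq2 1.42.0, limma 3.58.1 on log2 CPM, RLE and upper-quartile scaling, no filter, at least 10 counts in every library, only the lines compared, a replicate block, leaving out each library, and the long-transcript covariate, which was chosen after seeing the data. VSN was not run.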

Additional observations from a re-analysis of the deposited data

How the results depend on the processing

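Of 450 alternative values for the 30 log2 fold changes of members, 438 kept the direction and the side of the threshold, 8 missed the threshold, 2 newly passed it and 2 changed sign. The last were uncalled values of MNT in the metastatic line against 786-O, from -0.036 to 0.0088 over the libraries left out. Against HK2 a single call was lost, MNT in 786-O without HK2 replicate 3. The other changes, all between the carcinoma lines, concern MXD1, MXD4, MXI1 and MLXIP and are given with those genes; their causes were not tested. With the replicate block, 10, 10 and 6 members and 51, 50 and 30 MYC target genes were called, and no member's call changed. Libraries with the same number did not deviate together in all pairs. Correlations were -0.0285, -0.0573 and -0.0508 between 786-O and HK2, and -0.0756, -0.167 and 0.0376 between the metastatic line and HK2. They were all positive, at 0.215, 0.0740 and 0.110, between the metastatic line and 786-O. The labels give only a number, and these correlations cannot decide whether same-numbered libraries were handled together. Leaving out a library gave 48 to 50, 47 to 49 and 27 to 30 MYC target genes. DESeq2 called 5 members between the carcinoma lines. With VSN no fit was run, and no count moved by over 1.5 times.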

Other observations

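The tested gene whose mean log2 CPM over the 3 lines, centred on its own mean, was nearest to that of MYC was TOGARAM1, a protein of the cilium, at a Euclidean distance of 0.0251, followed by CCDC148 at 0.0353. For MAX the nearest were NF2, the tumour suppressor merlin, at 0.00418 and TSR2, a ribosome assembly factor, at 0.00478. These are likenesses over 3 means among 12695 genes, with no test.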
